A study of Mus musculus with 9 samples.

Results

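The genes that control plasminogen activation at the cell surface, and the thrombin and tissue factor branch that meets them, were followed in lung fibroblasts of aged mice after bleomycin injury. They are the activators Plau and Plat, the receptor Plaur, the serpins Serpine2 and Serpinf1, the thrombin receptor F2r, tissue factor F3, and the Kunitz-type inhibitors Tfpi and Tfpi2. These 9 genes were chosen by symbol for their place in the pathway, with earlier results of these data known. They are among 43346 genes in the deposited table, and all 9 had enough reads to be tested. The libraries came from male mice of the Col1a1-GFP strain on an FVB background, whose labels give an age of 72 weeks, and which carry a green fluorescent protein transgene driven by collagen I promoter sequence. Aged sham mice (n = 4) received saline and aged bleo mice (n = 5) received bleomycin, each given into the trachea, and lungs were taken 30 days later. Cells positive for GFP and negative for CD45, CD31, and EpCAM were sorted, and their polyadenylated RNA was sequenced. The gate thus takes cells with an active collagen I promoter, in saline and bleomycin lungs alike.

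Plasminogen circulates as an inactive precursor, and cells turn it into plasmin through the urokinase activator Plau, held at the surface by its receptor Plaur, or through the tissue activator Plat. Plasmin dissolves fibrin and cleaves matrix proteins, and serpins stop the activators by acting as bait that traps them in a lasting complex. Fibrin itself is made by thrombin, which is generated after F3 exposes blood to the extrinsic pathway, and thrombin also signals to fibroblasts through F2r. In lung fibrosis, fibrin turnover and thrombin signaling to fibroblasts have long been studied as parts of the same repair process.

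Between 49921946 and 62370512 reads were counted per aged sham library, and between 53833507 and 68260600 per aged bleo library, and 3 counts, the upper limit for a count of 0, equal 0.0409 to 0.0605 CPM (counts scaled to library size by TMM). The 8 fibroblast markers summed to 24845 to 30577 CPM in aged sham and 54995 to 72429 CPM in aged bleo, with 4 markers higher and 2 lower, and no marker of any list was at 0 in every library. The higher sum rests on the collagen genes Col1a1 (4154 to 20853 CPM in the group means), Col1a2 (5463 to 16472), and Col3a1 (7910 to 23902). Of the other fibroblast markers, Pdgfrb rose (358 to 565 CPM), Dcn (8122 to 2795 CPM) and Tcf21 (106 to 49.6 CPM) fell, and Lum and Pdgfra were not called. Of the 10 macrophage markers, 4 were higher and none lower in aged bleo, and the list summed to 154 to 299 CPM in aged sham and 465 to 1597 CPM in aged bleo. Most of these reads were Lyz2, and the other 9 macrophage markers summed to 73.9 to 138 CPM and to 92.2 to 465 CPM, which overlap. The 8 neutrophil markers summed to 170 to 1018 CPM in aged sham and 85.2 to 912 CPM in aged bleo, with no call among the 7 tested, and the 6 pan-leukocyte markers to 101 to 371 and 100.01 to 566 CPM, with 1 higher. Aged bleo 4 and aged sham 4 held the highest leukocyte sums of their groups. The endothelial list (7 genes, 6 tested, 2 higher and 1 lower) summed to 170.0 to 199 CPM in aged sham and 38.4 to 83.1 CPM in aged bleo, but the lower sum rests on Tek, and the other 6 endothelial markers summed to 19.7 to 22.7 and 27.4 to 33.7 CPM. The epithelial list (8 genes, 1 higher and 1 lower) summed to 10.3 to 82.1 and 17.2 to 53.5 CPM. Mesothelial markers (5 genes, none called) summed to 27.6 to 79.4 and 32.5 to 118 CPM, platelet markers (4 genes, 3 tested, 1 lower) to 11.0 to 20.7 and 9.04 to 16.3 CPM, and smooth muscle and pericyte markers (7 genes, 1 higher and 2 lower) to 1424 to 2865 and 891 to 1852 CPM.

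The start regions of the genes that changed are shown because AP-1 and NFAT are transcription factor families studied in activated fibroblasts and their short motifs can be read directly in the sequence. RefSeq (GRCm38.p6) gave a start for 7 of the 9 genes, and up to 250 bases before it were searched on both strands, of which the exon bases of protein-coding genes are left off the print. The 6 regions below belong to the genes called in the comparison, are written 5′ to 3′ on the strand of the gene, and carry in capitals each match to the AP-1 motif TGANTCA and to the NFAT core GGAAA, which reads TTTCC where it lies on the opposite strand. They lie at chr7:24462233-24462482 for Plaur (plus strand), chr1:79858697-79858915 for Serpine2 (minus strand), chr11:75422702-75422873 for Serpinf1 (minus strand), chr13:95618488-95618716 for F2r (minus strand), chr3:121723287-121723536 for F3 (plus strand), and chr6:3968377-3968625 for Tfpi2 (minus strand).
Plaur: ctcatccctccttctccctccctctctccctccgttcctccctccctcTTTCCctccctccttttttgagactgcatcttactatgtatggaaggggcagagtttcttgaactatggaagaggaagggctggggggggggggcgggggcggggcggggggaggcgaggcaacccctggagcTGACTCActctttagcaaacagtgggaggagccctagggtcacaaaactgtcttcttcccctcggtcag
Serpine2: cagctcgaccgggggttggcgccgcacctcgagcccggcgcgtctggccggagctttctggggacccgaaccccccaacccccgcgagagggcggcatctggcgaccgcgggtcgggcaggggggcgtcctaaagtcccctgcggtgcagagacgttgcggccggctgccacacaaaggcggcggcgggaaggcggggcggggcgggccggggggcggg
Serpinf1: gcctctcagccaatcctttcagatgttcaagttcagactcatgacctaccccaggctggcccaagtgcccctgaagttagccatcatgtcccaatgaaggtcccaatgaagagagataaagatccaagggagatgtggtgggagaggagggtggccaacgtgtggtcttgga
F2r: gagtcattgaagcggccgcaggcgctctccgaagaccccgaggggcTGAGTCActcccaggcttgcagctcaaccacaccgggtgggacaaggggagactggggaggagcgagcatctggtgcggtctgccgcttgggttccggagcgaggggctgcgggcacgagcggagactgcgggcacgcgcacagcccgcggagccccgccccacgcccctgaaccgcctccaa
F3: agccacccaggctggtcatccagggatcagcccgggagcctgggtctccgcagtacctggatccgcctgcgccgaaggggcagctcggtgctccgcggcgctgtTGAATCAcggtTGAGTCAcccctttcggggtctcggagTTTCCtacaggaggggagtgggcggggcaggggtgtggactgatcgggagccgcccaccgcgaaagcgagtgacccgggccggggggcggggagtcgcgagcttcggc
Tfpi2: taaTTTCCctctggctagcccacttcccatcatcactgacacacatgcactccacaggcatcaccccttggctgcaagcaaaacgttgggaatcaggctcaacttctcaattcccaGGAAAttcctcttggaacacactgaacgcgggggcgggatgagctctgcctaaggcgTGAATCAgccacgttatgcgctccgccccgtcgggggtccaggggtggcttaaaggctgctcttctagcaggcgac
The 7 genes had 10 such regions, 2 for Tfpi and 3 for Tfpi2, and 2 of the Tfpi2 regions overlap. As the regions are not all separate and the genes were chosen with earlier results of these data known, the motif shares are descriptions only. An AP-1 motif stood in 4 of the 10, against 6.7% of the 32851 start regions in the table, and F3 held it at 2 places, positions -146 and -135 counted from its start. The other AP-1 matches lay at -69 for Plaur, -204 for F2r, and -77 for Tfpi2, in 1 of its 3 regions. The NFAT core, which is short and stands in 55.6% of all regions, was found in 5 of the 10, which belong to Plaur, F3, Tfpi, and Tfpi2. The SP1 motif GGGCGG was found in 7 of the 10 (32.7% of all regions), with 6 matches before the start of Serpine2, 4 of them in the printed region, whose GC content was 77.6%. The TATA motif TATAAA stood in 1 of the 10, a region of Tfpi (12.4% of all regions), and the TEAD motif CATTCC in 0 of the 10 (12.6% of all regions). Genes with an AP-1 motif changed in both directions, as F3 was lower and Plaur, F2r, and Tfpi2 were higher in aged bleo, and the called genes Serpine2 and Serpinf1 held neither capitalised motif in these windows. A match describes letters and not binding, and these regions were not measured in the libraries.

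Aged bleo fibroblasts differed from aged sham fibroblasts in 6 of the 9 genes. Serpine2, F2r, Plaur, and Tfpi2 were higher, and Serpinf1 and F3 were lower, while Plau, Plat, and Tfpi did not pass. A gene was called when the FDR, the p-value of edgeR's quasi-likelihood test adjusted over all 16877 genes tested, was under 0.10 and the fold change over 1.5. By this rule, 23.8% of all genes tested were called (12.3% higher and 11.5% lower in aged bleo), against 66.7% of the 9 genes. As the 9 genes were chosen with earlier results of these data known, this difference in share is a description only. The libraries of the groups did not overlap for 4 of the 9 genes, and for 32.2% of all genes tested (16.1% with aged bleo higher and 16.1% with aged bleo lower). The median log2 fold change was 0.23 over the 9 genes and 0.0064 over all genes. In these bulk libraries, fewer cells of a type and less RNA per cell cannot be told apart.

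**Figure D1:**
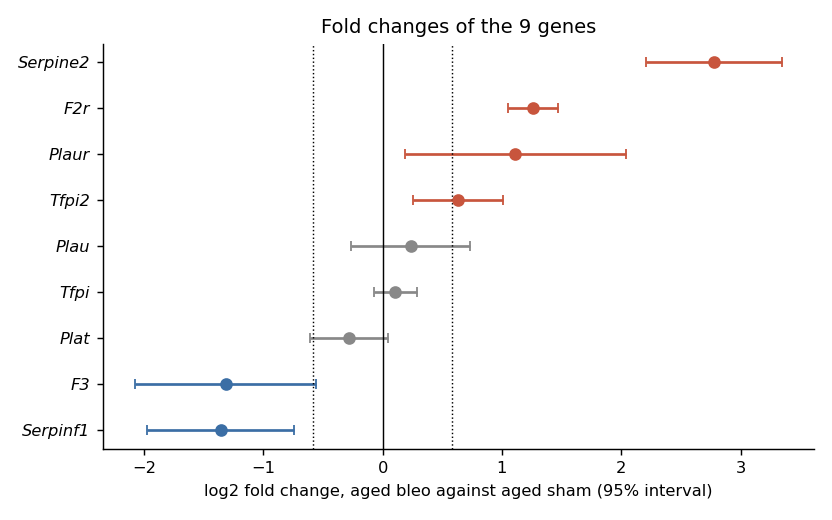
Fitted log2 fold change of aged bleo (n = 5) over aged sham (n = 4) for the 9 genes from edgeR, with bars for the 95% confidence interval and dotted lines at a fold change of 1.5. Serpine2 lies farthest from 0 at 2.78, Serpinf1 and F3 lie below 0, and the intervals of Plau, Plat, and Tfpi cross 0.

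**Figure D2:**
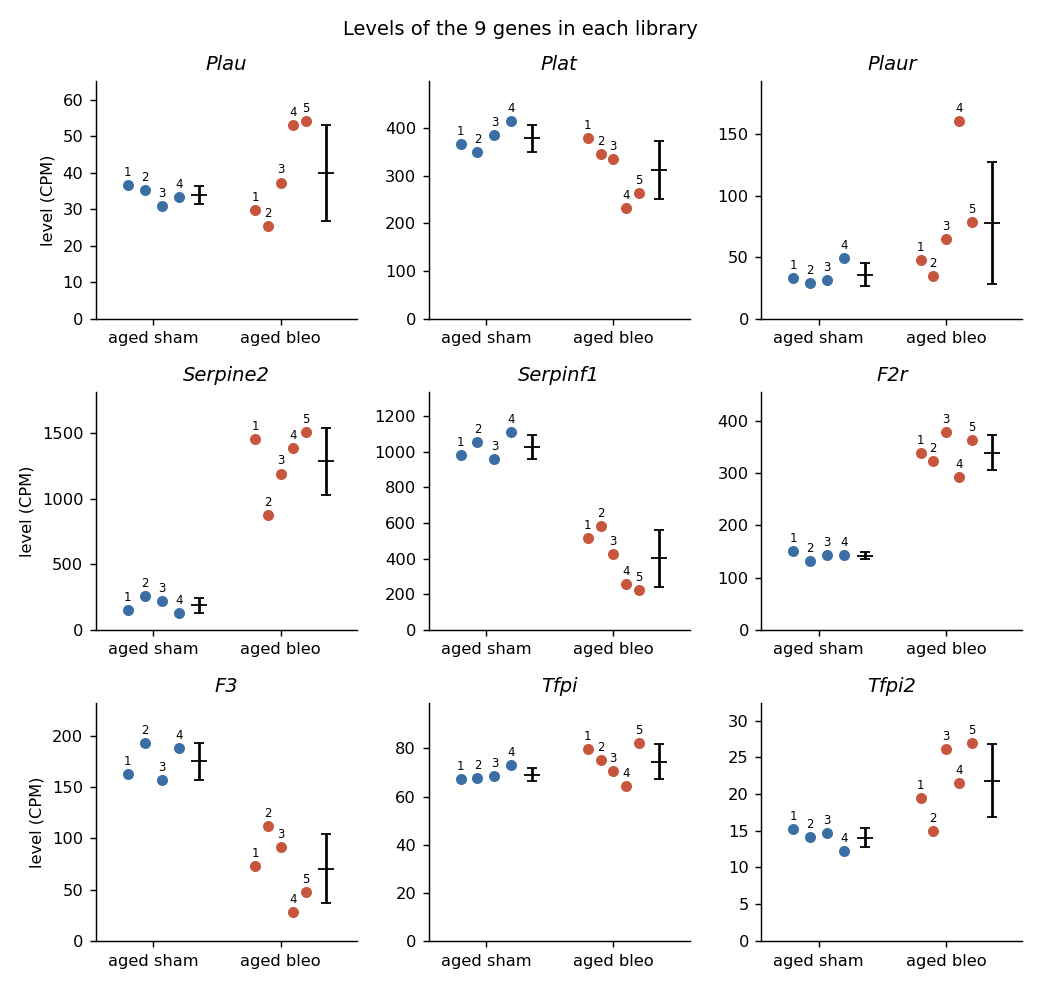
Level of each of the 9 genes in CPM on axes that start at 0, with 1 point per library carrying its number and bars for the mean ± SD of 4 aged sham and 5 aged bleo libraries. The groups do not overlap for Serpine2, Serpinf1, F2r, and F3, and they overlap for the other 5 genes.

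The activators themselves did not pass the test. Plau (ENSMUSG00000021822; GRCm38 chr14:20836662-20843388), the urokinase-type activator, stood at 36.5, 35.1, 30.9, and 33.3 CPM in aged sham 1 to 4 and at 29.7, 25.5, 37.3, 53.0, and 54.3 CPM in aged bleo 1 to 5. Aged bleo 3, 4, and 5 were above every aged sham library, aged bleo 3 only just, and aged bleo 1 and 2 below every one of them, so the groups overlapped. The means were 34.0 ± 2.41 CPM (SD, n = 4) and 40.0 ± 13.2 CPM (SD, n = 5), and the log2 fold change in edgeR was 0.23 (SE 0.22, FDR 0.436) with a 95% interval from -0.26 to 0.73.

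Plat (ENSMUSG00000031538; chr8:22757744-22782847), the tissue-type activator that works best on fibrin, stood at 367, 349, 384, and 416 CPM in aged sham and at 379, 346, 334, 233, and 264 CPM in aged bleo. Aged bleo 1 lay within the aged sham range, and aged bleo 2 to 5 lay below it, with aged bleo 4 lowest. The means were 379 ± 28.5 (SD, n = 4) and 311 ± 60.8 CPM (SD, n = 5), and the log2 fold change was -0.28 (SE 0.15, FDR 0.157 in edgeR) with an interval from -0.61 to 0.04. A fall of up to 0.61 on the log2 scale is therefore within the interval.

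Plaur (ENSMUSG00000046223; chr7:24462500-24475873), the receptor that holds urokinase on the cell surface, was higher in aged bleo. It stood at 32.8, 29.3, 31.6, and 49.7 CPM in aged sham and at 48.1, 34.7, 65.0, 161, and 78.4 CPM in aged bleo. Aged bleo 4 was far above every other library, and aged bleo 1 and 2 were below aged sham 4, so the groups overlapped. The means were 35.9 ± 9.31 (SD, n = 4) and 77.5 ± 49.6 CPM (SD, n = 5), and the log2 fold change was 1.11 (SE 0.41, FDR 0.0619 in edgeR), which is 2.16-fold.

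Plaur is also made by leukocytes, and in each group the library with the most Plaur was the one with the most macrophage and neutrophil marker reads. The macrophage markers summed to 154, 235, 195, and 299 CPM in aged sham 1 to 4 and to 465, 708, 562, 1597, and 905 CPM in aged bleo 1 to 5. Neutrophil markers summed to 170, 227, 449, and 1018 CPM in aged sham and to 142, 101, 147, 912, and 85.2 CPM in aged bleo. Aged bleo 4 and aged sham 4 were thus highest of their groups in both sums and in Plaur, and the part of these markers in the Plaur result was not tested. Leaving out aged bleo 4 gave Plaur a log2 fold change of 0.65 (FDR 0.0839 in edgeR), and without aged bleo 4 and aged sham 4, an alternative chosen after seeing the data, it was 0.84 (FDR 0.0462 in edgeR). The call was lost when aged sham 1 (1.07, FDR 0.127), aged sham 2 (1.03, FDR 0.141), aged sham 3 (1.07, FDR 0.140), or aged bleo 5 (1.11, FDR 0.104) was left out of the edgeR fit.

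**Figure D3:**
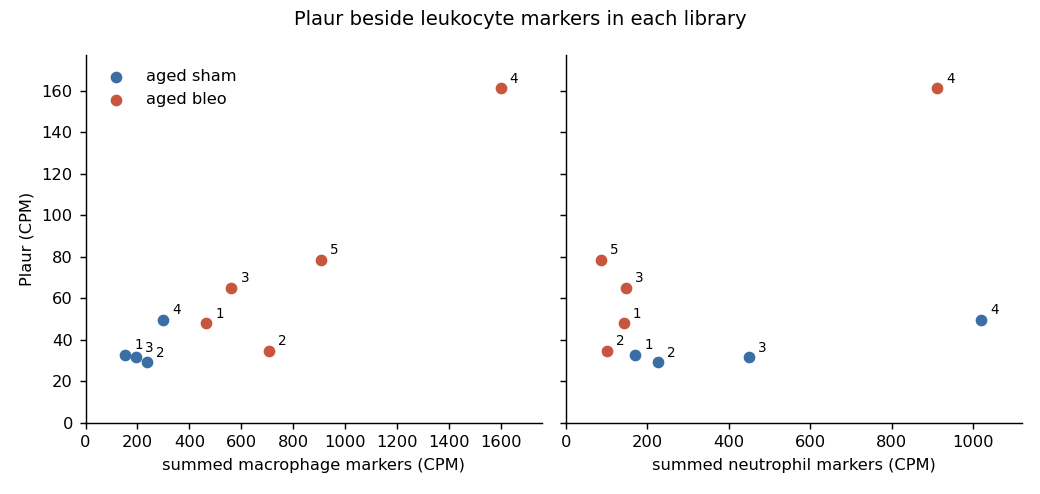
Plaur in CPM against the summed CPM of the macrophage and of the neutrophil markers, with 1 numbered point per library, blue for aged sham and red for aged bleo. Aged bleo 4 lies highest in Plaur (161 CPM) and in macrophage markers (1597 CPM), and aged sham 4 is highest of aged sham in all 3 measures.

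Of the serpins, the most changed of the 9 genes was Serpine2 (ENSMUSG00000026249; chr1:79794197-79861180), which encodes protease nexin-1, an inhibitor of thrombin, urokinase, and plasmin. It stood at 149, 254, 217, and 128 CPM in aged sham and at 1455, 875, 1190.5, 1385, and 1509 CPM in aged bleo. The lowest aged bleo library, aged bleo 2, was far above the highest aged sham library. The means were 187 ± 58.4 (SD, n = 4) and 1283 ± 258 CPM (SD, n = 5), and the log2 fold change was 2.78 (SE 0.25, FDR 1.14e-04 in edgeR) with an interval from 2.21 to 3.35, which is 6.86-fold. By size of the fitted change, this was rank 299 of the 16877 genes tested.

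Serpinf1 (ENSMUSG00000000753; chr11:75409769-75422701) encodes pigment epithelium-derived factor, a secreted serpin that does not inhibit proteases and is known as an inhibitor of vessel growth. It fell from 982, 1053, 960.5, and 1112 CPM in aged sham to 518, 585, 423, 256, and 222 CPM in aged bleo. Aged bleo 4 and 5 were lowest, and aged bleo 2, the highest of its group, remained well below the lowest aged sham library. The means were 1027 ± 69.2 (SD, n = 4) and 401 ± 159 CPM (SD, n = 5), a 2.56-fold lower level, with a log2 fold change of -1.36 (SE 0.27, FDR 0.00615 in edgeR). The serpins among the 9 genes therefore moved in opposite directions.

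The thrombin receptor F2r (ENSMUSG00000048376; chr13:95601804-95618459), a G protein-coupled receptor that thrombin switches on by cutting its outer end, was higher in aged bleo, with the smallest SE of the 6 called genes. It stood at 150.0, 132, 142, and 142 CPM in aged sham and at 338, 323, 379, 292, and 363 CPM in aged bleo. Every aged bleo library was above every aged sham library, and aged bleo 4, which was extreme for Plaur and F3, had the lowest F2r of its group. The means were 142 ± 7.17 (SD, n = 4) and 339 ± 34.0 CPM (SD, n = 5), and the log2 fold change was 1.26 (SE 0.09, FDR 3.79e-05 in edgeR), which is 2.39-fold.

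F3 (ENSMUSG00000028128; chr3:121723537-121735052), tissue factor, the membrane protein that binds factor VII and starts coagulation, fell in aged bleo. It stood at 162, 193, 157, and 188 CPM in aged sham and at 72.9, 112, 91.2, 28.2, and 47.4 CPM in aged bleo. Aged bleo 4 and 5 were lowest and aged bleo 2 nearest to aged sham, with no overlap. The means were 175 ± 17.8 (SD, n = 4) and 70.4 ± 33.5 CPM (SD, n = 5), and the level was 2.49-fold lower, with a log2 fold change of -1.31 (SE 0.34, FDR 0.0163 in edgeR).

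Tfpi (ENSMUSG00000027082; chr2:84432855-84476775), the inhibitor of the complex of tissue factor and factor VII, did not pass the test. It stood at 67.3, 67.8, 68.4, and 73.0 CPM in aged sham and at 79.9, 75.0, 70.6, 64.4, and 82.3 CPM in aged bleo. Aged bleo 4 was the lowest of all libraries and aged bleo 5 the highest. The means were 69.1 ± 2.62 (SD, n = 4) and 74.4 ± 7.20 CPM (SD, n = 5), and the log2 fold change was 0.11 (SE 0.08, FDR 0.322 in edgeR) with a narrow interval from -0.07 to 0.29.

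Tfpi2 (ENSMUSG00000029664; chr6:3962589-3974650) is a matrix-bound inhibitor that acts on plasmin among other proteases, and it was higher in aged bleo. It stood at 15.2, 14.1, 14.7, and 12.3 CPM in aged sham and at 19.5, 14.9, 26.1, 21.5, and 27.0 CPM in aged bleo. Only aged bleo 2 lay within the aged sham range, and the other aged bleo libraries were above it. The means were 14.1 ± 1.27 (SD, n = 4) and 21.8 ± 4.95 CPM (SD, n = 5), and the log2 fold change was 0.63 (SE 0.17, FDR 0.0184 in edgeR), or 1.55-fold, which is close to the threshold of 1.5. The change was under that threshold without aged sham 4 (0.57), aged bleo 3 (0.56), or aged bleo 5 (0.55).

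Across the aged bleo libraries, the genes did not spread alike. Aged bleo 2 was nearest to aged sham for Serpine2, Serpinf1, F3, Plaur, and Tfpi2, but not for F2r, for which aged bleo 4 was nearest. Aged bleo 4 and 5 had the lowest Plat, Serpinf1, and F3 and the highest Plau and Plaur of their group.

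On the deposited FPKM scale, which divides reads by gene length and so allows levels of different genes to be compared, the order of the genes changed. In aged sham, Serpinf1 was first at 182 ± 10.7 FPKM (SD, n = 4), then Plat at 62.7 ± 3.86, F3 at 39.1 ± 3.94, and F2r at 18.0 ± 0.825 FPKM, and this order held in all 4 libraries. Plaur at 10.7 ± 2.59 and Serpine2 at 9.51 ± 3.10 FPKM exchanged places between libraries, with Plaur higher in aged sham 1 and 4 and Serpine2 higher in aged sham 2 and 3. Plau at 6.08 ± 0.442, Tfpi at 5.30 ± 0.133, and Tfpi2 at 3.61 ± 0.365 FPKM came last in that order in all 4.

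In aged bleo, Serpinf1 at 72.7 ± 27.7 FPKM (SD, n = 5) and Serpine2 at 66.8 ± 14.6 FPKM had the highest means, followed by Plat at 52.7 ± 9.49 and F2r at 44.0 ± 3.68 FPKM. Within a library, Serpine2 over Serpinf1 was 0.800, 0.426, 0.801, 1.54, and 1.93 in aged bleo 1 to 5, so which gene was higher changed between libraries. Serpine2 was first of the 9 genes in aged bleo 4 and 5, where Serpinf1 had ranks 3 and 4. Plaur at 24.2 ± 16.3 and F3 at 16.0 ± 7.29 FPKM overlapped, as did Plau at 7.37 ± 2.58, Tfpi at 5.86 ± 0.547, and Tfpi2 at 5.73 ± 1.30 FPKM. This order is that of the means and did not hold in every library. Plat was above Serpine2 in aged bleo 2, F2r above Plat in aged bleo 5, and F3 above Plaur in aged bleo 1, 2, and 3. In aged bleo 4, Plaur had rank 2 and F3 rank 7, below Plau.

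**Figure D4:**
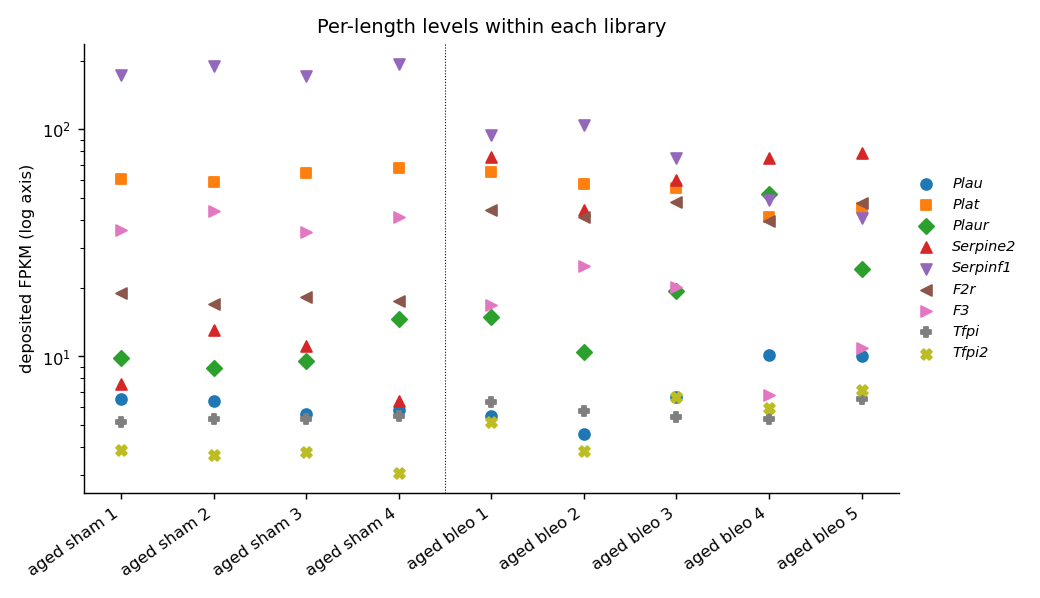
FPKM on a log axis against the 9 libraries, with 1 marker shape per gene and a dotted line between aged sham and aged bleo. Serpine2 moves from 9.51 FPKM in aged sham, among the middle genes, to 66.8 FPKM in aged bleo, beside Serpinf1 at 72.7 FPKM.

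The balance between inhibitor and activator transcripts can be read from ratios of FPKM within a library, which are given as values with no test of their own. Serpine2 over the sum of Plau and Plat was 0.112, 0.200, 0.159, and 0.0867 in aged sham and 1.08, 0.715, 0.971, 1.46, and 1.43 in aged bleo. Per length, Serpine2 was thus below the summed activators in every aged sham library and in aged bleo 2 and 3, and above them in aged bleo 1, 4, and 5. This order depends on the deposited gene length, which is 8287 bases for Serpine2 and 2531 for Plat. In CPM, Serpine2 was above the activators in aged bleo 2 (875, with Plat at 346 and Plau at 25.5) and aged bleo 3 (1190.5, with Plat at 334 and Plau at 37.3) as well. F3 over Tfpi, the initiator over its inhibitor, was 7.03, 8.29, 6.70, and 7.48 in aged sham and 2.66, 4.35, 3.76, 1.27, and 1.68 in aged bleo. The groups did not overlap in either ratio, and F3 remained above Tfpi per length in every library. That order, too, depends on the deposited gene length (1876 bases for F3 and 5463 for Tfpi). In CPM, F3 was below Tfpi in aged bleo 1, 4, and 5 (72.9, 28.2, and 47.4 against 79.9, 64.4, and 82.3).

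**Figure D5:**
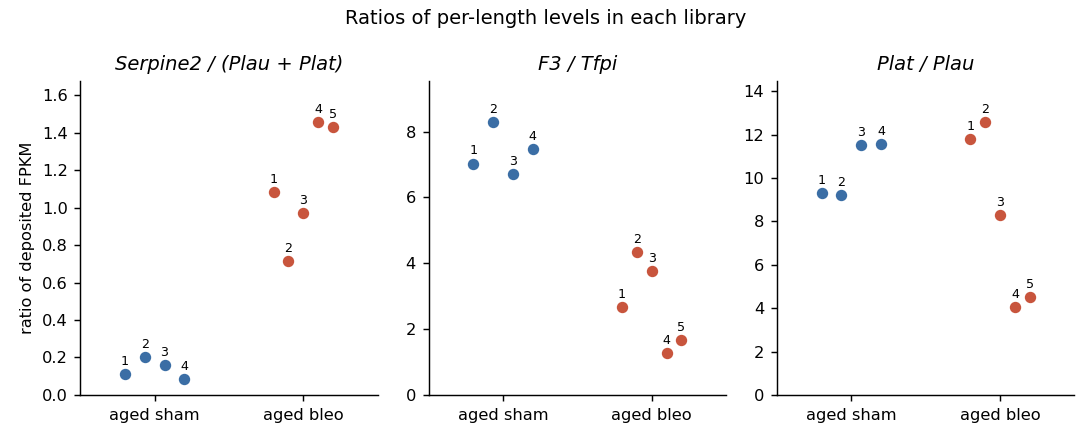
FPKM ratios within each library on axes that start at 0, with 1 numbered point per library for 4 aged sham and 5 aged bleo libraries. Serpine2 over the sum of Plau and Plat goes from at most 0.200 in aged sham to at least 0.715 in aged bleo, and F3 over Tfpi from at least 6.70 to at most 4.35, while Plat over Plau overlaps.

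Within the activator arm, the ratios overlapped. Plat over Plau was 9.31, 9.19, 11.5, and 11.6 in aged sham and 11.8, 12.6, 8.30, 4.07, and 4.50 in aged bleo, so Plat exceeded Plau per length in every library and by least in aged bleo 4 and 5. Plaur over Plau was 1.51, 1.40, 1.72, and 2.504 in aged sham and 2.71, 2.28, 2.92, 5.10, and 2.43 in aged bleo. In this ratio, aged sham 4 lay within the aged bleo range and the other aged sham libraries below it.

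The genes whose levels were most like those of each member were named by Pearson's r of log2 CPM over the 9 libraries, among 10013 genes with a mean of at least 10 CPM. Since all 9 libraries enter, r can include the difference between the groups, and r after taking out the group means is given second. Serpine2 was followed most closely by Mob3b (0.996, within groups 0.921) and 4931428F04Rik (0.995, within groups 0.946), Serpinf1 by Pid1 (0.996 and 0.984) and Clec3b (0.995 and 0.988), and F3 by Xpnpep2 (0.995 and 0.991) and Ces2g (0.993 and 0.980). F2r was followed by Gtf3c4 (0.995 and 0.894) and Epha3 (0.994 and 0.755), the latter with the lowest r within groups of all those named. Plaur was followed by Slfn2 (0.986 and 0.985) and Arpc5 (0.979 and 0.980), and Tfpi2 by Odc1 (0.954 and 0.931) and Csrp2bp (0.954 and 0.895). For the genes that did not pass the test, they were Rad21 (0.970 and 0.969) and Eif3l (0.946 and 0.950) for Plau, Tmem127 (0.970 and 0.955) and Gm20536 (0.970 and 0.965) for Plat, and 4931406C07Rik (0.939 and 0.965) and Rfwd2 (0.923 and 0.912) for Tfpi. With 9 libraries and this many candidate genes, a high r is a description only.

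Lists of other genes around the 9 were read beside the share over all genes tested, which was 23.8% called (12.3% higher and 11.5% lower), with a median log2 fold change of 0.0064. The lists, too, were chosen with earlier results of these data known, so their shares are descriptions. Of 15 genes for plasminogen and its cell surface partners, 14 were tested, of which 2 were higher and 3 lower (35.7%), with a median log2 fold change of 0.18. Mrc2, a collagen uptake receptor that joins the urokinase receptor complex, rose from 286 ± 20.6 (SD, n = 4) to 591 ± 39.6 CPM (SD, n = 5; log2 fold change 1.05, SE 0.09, FDR 7.34e-05 in edgeR). S100a10, which with Anxa2 forms a plasminogen-binding complex, fell from 188 ± 16.5 to 109 ± 16.1 CPM (-0.79, SE 0.11, FDR 0.00129 in edgeR), while Anxa2 stood at 458 ± 32.8 and 485 ± 80.0 CPM and did not pass (0.08, FDR 0.638). The other called genes were the integrin gene Itgb3 (-0.61) and the lipoprotein receptor Vldlr (-0.62), both lower, and Eno1 (1.06, FDR 0.0260 in edgeR), whose reads may be shared with its near-identical copy Eno1b and whose value is therefore uncertain. Lrp1, the endocytic receptor that clears complexes of serpin and protease, stood at 3326 ± 382 and 2554 ± 613 CPM and did not pass (-0.38, FDR 0.150). Plg, plasminogen itself, had at most 8 reads in any library and was not tested. Without aged bleo 5, 3 genes of this list were called.

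Of the 11 other inhibitors of plasmin and its activators, 7 were tested, with 1 higher and 1 lower (28.6%) and a median of 0.017. The higher one was Serpinb2 (PAI-2), at 2.07 ± 2.13 and 8.92 ± 5.52 CPM with overlapping libraries (2.10, SE 0.84, FDR 0.0802 in edgeR), and the lower one Pzp, a broad protease trap, at 1.18 ± 0.335 and 0.655 ± 0.305 CPM (-0.86, FDR 0.0943). These calls were fragile, as the list had 0 called genes without aged sham 3, aged bleo 1, or aged bleo 3, and 1 without aged sham 2, aged sham 4, or aged bleo 5.

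Of 14 other serpins, 11 were tested, with 2 higher and 1 lower (27.3%) and a median of 0.24. Serpinh1, the collagen chaperone HSP47, rose from 965 ± 99.1 (SD, n = 4) to 1804 ± 236 CPM (SD, n = 5; 0.90, SE 0.13, FDR 0.00129 in edgeR). Serping1, the inhibitor of complement C1, fell from 5143 ± 338 to 2396 ± 986 CPM (-1.10, SE 0.30, FDR 0.0209 in edgeR). Serpind1 (heparin cofactor II), a thrombin inhibitor, was higher at a very low level, 0.281 against 0.71 CPM (1.33, FDR 0.0191). Serpina3n, at 651 ± 58.9 and 968 ± 267 CPM, had an FDR of 0.0427 in edgeR but a log2 fold change of 0.57, under the threshold, and belongs to a cluster of similar genes whose reads may not be separated. The list had 6 called genes without aged sham 1 and 5 without aged bleo 3.

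Of 17 coagulation factor, cofactor, and fibrin genes, 7 were tested, and 3 were higher and none lower (42.9%), with a median of 0.36. They were the protease genes F7, at 1.03 ± 0.379 and 6.80 ± 3.22 CPM (2.72, SE 0.39, FDR 0.00122 in edgeR), and F10, at 0.637 ± 0.202 and 2.66 ± 2.04 CPM (2.06, SE 0.50, FDR 0.0134 in edgeR), and the cofactor gene F8, at 0.646 and 1.08 CPM (0.74, FDR 0.0908). F7 encodes the partner of F3 and moved opposite to it. The macrophage marker sum did not overlap between the groups (154 to 299 and 465 to 1597 CPM), but without Lyz2 it did (73.9 to 138 and 92.2 to 465 CPM), and its part in these results was not tested. Tgm2, a crosslinking enzyme of matrix and fibrin, stood at 344 ± 28.7 and 443 ± 76.4 CPM and did not pass the fold threshold (0.36, FDR 0.0633).

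Among 10 anticoagulant genes, 8 were tested and 3 fell with none higher (37.5%), with a median of -0.25. Thbd, thrombomodulin, which turns thrombin toward activation of protein C, fell from 1798 ± 145 (SD, n = 4) to 435 ± 213 CPM (SD, n = 5; -2.05, SE 0.33, FDR 0.00233 in edgeR). Procr, the receptor that presents protein C to that complex, fell from 41.6 ± 9.33 to 19.5 ± 7.58 CPM (-1.10, SE 0.26, FDR 0.0112 in edgeR). Both genes are also made by endothelial cells. Of the endothelial markers, Tek fell (161 to 28.9 CPM in the group means), Erg and Kdr were higher, Pecam1, Cdh5, and Cldn5 did not pass, and Emcn was not tested, and their part in the fall of Thbd and Procr was not tested. Wfdc1, the remaining called gene, went from 40.3 to 17.5 CPM (-1.21, FDR 0.0318), and Gas6 (-0.17, FDR 0.661) and Anxa5 (-0.04, FDR 0.767) did not pass.

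Of the 4 other thrombin and protease receptors, all were tested and 2 were higher (50.0%), with a median of 0.53. F2rl1 (PAR2), the receptor that tissue factor complexes and trypsin-like proteases cleave, stood at 0.583 and 2.37 CPM (2.02, SE 0.50, FDR 0.0148 in edgeR), and F2rl2 (PAR3) at 0.287 and 0.725 CPM (1.34, FDR 0.0572). The remaining receptors, F2rl3 (PAR4) at 0.659 and 0.536 CPM (FDR 0.347) and Gp1ba at 1.54 and 1.28 CPM (FDR 0.345), which is best known from platelets, did not pass the test in edgeR. Only 1 receptor was called without aged sham 1, aged sham 3, aged bleo 4, or aged bleo 5.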

How the data were processed

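The RNA-Seq data cover sorted fibroblasts of the Col1a1-GFP strain, in 4 libraries labelled aged sham and 5 labelled aged bleo. The authors deposited 1 table with whole-number read counts of 43346 genes per library, not normalized, and with FPKM values that the authors scaled to gene length and library total. The submitters' processing notes name bcl2fastq, STAR 2.5.2b, Subread, featureCounts, and mm10 (GRCm38). The sources do not say if strand was used in counting, and no other gene of the table overlaps the span of any of the 9 genes.

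The quasi-likelihood test of edgeR 4.0.16 was run in R 4.3.3 on the counts of the 16877 genes whose mean count reached 25, after TMM normalization and without covariates. FDR values are Benjamini-Hochberg adjusted over all genes tested, and a call needs an FDR under 0.10 together with a change of more than 1.5-fold. CPM was computed with TMM library sizes, and a prior count of 2 was added before taking log2. Limits from a count of 0 (3 counts) cover counting error only. No library was a duplicate of another, since the chi-square per degree of freedom between libraries of a group was 30.9 to 468. FPKM was used for levels between genes and in alternative fits.

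The 9 genes and the gene and marker lists were chosen with earlier results of these data known. All 9 genes are named, with up to 5 genes a list, namely the up to 3 called genes with the largest fold changes and genes with a mean of at least 100 CPM. For each of the 9 genes, the 2 genes with the highest r at a mean of at least 10 CPM are named. Plg, Itgb3, Vldlr, F2rl3, Gp1ba, and the genes with small shifts were named after their values were seen. A gene that this rule names is not reported here. The alternatives were a fold change over 2, no filter, RLE or plain library size in place of TMM, DESeq2 1.42.0, limma-trend (limma 3.58.1) on log2 CPM, log2(FPKM + 0.1), and log2(FPKM + 1), a block for replicate numbers, omission of each library, and, chosen after seeing the data, both libraries with the highest leukocyte sums left out. The block fit left out aged bleo 5, whose number no aged sham library carries. The test was tried on simulated counts. Promoter regions are from RefSeq (GRCm38.p6), and exon bases of protein-coding genes were left off. For Tfpi2, which has 3 regions, the one within the span of the deposited gene is shown.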

Additional observations from a re-analysis of the deposited data

How the results depend on the processing

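Of 171 values of the 9 genes over 19 alternative fits, 160 kept their direction and stayed called or not called as in the main fit, and 0 reversed. The fold change over 2 used the main fit, so its directions could not differ. Without aged bleo 1, the FDR of Plat was 0.0835 in edgeR, but its log2 fold change of -0.36 stayed under the fold threshold. Plau, Plat, Serpine2, Serpinf1, F2r, F3, and Tfpi kept their calls in all 19, and Plaur and Tfpi2 did not. The log2 fold change of Tfpi2 was under the fold threshold on log2(FPKM + 1) (0.53), with the replicate numbers as a block (0.52), and without aged bleo 4 and aged sham 4 (0.56), and at 0.63 it does not reach a fold change of 2. Same-numbered libraries deviated together with r of 0.092, 0.062, -0.13, and 0.33, and only aged sham 4 correlated best with its own number. With so few libraries in a group, these values do not settle whether the numbers pair the samples. With the replicate block, which left out aged bleo 5, 3541 genes were called in all, and 5 of the 9 genes. The main fit called 4022 genes, and the fit without aged bleo 5 and with no block called 3525 genes and 4 of the 9. Over all genes, 1785 were called on log2(FPKM + 1) and 2284 at a fold change over 2. On log2(FPKM + 1), the genes called were 3 among the plasminogen partners, 1 among the other inhibitors, 1 among the coagulation genes, and 0 among the other receptors. On log2(FPKM + 0.1), 1 of the other inhibitors and 1 of the other receptors were called. At a fold change over 2, 2 plasminogen partners and 1 other inhibitor were called. Without a filter, 1 other inhibitor was called, and without aged bleo 4 and aged sham 4, 1 other inhibitor and 1 other receptor. When single libraries were left out, the calls ranged from 4 to 6 among the 9 genes, from 3525 to 4597 over all genes, from 3 to 6 among the plasminogen partners, from 0 to 3 among the other inhibitors, from 3 to 6 among the other serpins, from 2 to 4 among the coagulation genes, from 3 to 4 among the anticoagulant genes, and from 1 to 2 among the other receptors. In the same fits, the log2 fold change ranged from 0.65 to 1.31 for Plaur, from 0.55 to 0.74 for Tfpi2, from 2.63 to 2.96 for Serpine2, from -1.53 to -1.20 for Serpinf1, from 1.22 to 1.30 for F2r, from -1.55 to -1.12 for F3, from 0.10 to 0.36 for Plau, from -0.36 to -0.20 for Plat, and from 0.07 to 0.15 for Tfpi. The cause of these moves was not tested. Genes near the count filter, such as Pzp, Serpind1, F8, and F2rl2, rest on few reads.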

Other observations

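Among the lists around the 9 genes, 5 further genes had an FDR under 0.10 in edgeR and no overlap between the groups, but changed by less than the fold threshold of 1.5. They were picked by these traits, so the gaps between their ranges follow from the choice. Over all genes tested, the libraries of the groups did not overlap for 32.2%. Pros1, protein S, the cofactor of activated protein C, was between 236 and 278 CPM in aged sham and between 329 and 420.5 CPM in aged bleo (log2 fold change 0.55, FDR 0.00281 in edgeR), opposite to Thbd and Procr of the same list. Itgb5, an integrin subunit for vitronectin, was between 280.0 and 364 CPM and between 434 and 540.2 CPM (0.52, FDR 0.00668 in edgeR), opposite to Itgb3. Serpinb6a, an intracellular serpin, was between 268 and 311 CPM and between 164 and 207 CPM (-0.58, FDR 0.00147 in edgeR), and Serpinb1a, an intracellular inhibitor of neutrophil proteases, between 21.9 and 29.9 CPM and between 15.1 and 21.4 CPM (-0.54, FDR 0.0132 in edgeR). Both belong to gene clusters with similar copies, so their reads may not be fully separated. Plgrkt, a plasminogen receptor, was between 25.1 and 29.8 CPM and between 20.1 and 24.98 CPM (-0.27, FDR 0.0362 in edgeR). These are values only, and no explanation was tested.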
